A study of Oryza sativa with 24 samples.

Results

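The 6 genes followed on rice arrays here belong to galactolipid and sulfolipid synthesis. They are MGD2 (Os08g20420), DGD2 Os03g11560, DGD2 Os04g34000, SQD1 (Os05g32140), SQD2 Os01g04920 and SQD2 Os07g01030. They are those of these pathways that the study placed among its lipid remodeling genes. Each was found through the probe set that the study's gene list pairs with its identifier, so that 6 of 57258 non-control probe sets carry the main values. A further probe set of SQD2 Os07g01030 was taken from the platform annotation. The entries of that gene list at hand were all genes that rose in Dular roots under low Pi. The rise of the 6 genes in Dular roots was thus fixed by their choice, and choosing genes this way favours those that respond more in roots of Dular than of PB1. The study also listed its lipid remodeling genes as differentially expressed on these same arrays, which may favour rises in the other groups as well. All counts over the 6 genes are therefore given as descriptions, also where they stand beside shares of all probe sets.

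Membranes of plastids consist mainly of lipids without phosphorus. MGD enzymes transfer galactose from UDP-galactose to diacylglycerol and form monogalactosyldiacylglycerol (MGDG), and DGD enzymes add another galactose to give digalactosyldiacylglycerol (DGDG). SQD1 makes UDP-sulfoquinovose, and SQD2 transfers its sulfoquinovose to diacylglycerol to give the sulfolipid sulfoquinovosyldiacylglycerol (SQDG). Plants short of Pi are known to break down phospholipids and to replace them with DGDG and SQDG, which releases Pi for other uses.

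The samples were roots and shoots of 15-day-old seedlings of Dular, a traditional rice genotype tolerant of low Pi, and of PB1, a modern sensitive one. Seedlings grew in nutrient solution with 320 µM Pi (+Pi) or 1 µM Pi (−Pi), which gives 8 groups with 3 biological replicates each and 24 Affymetrix arrays. Each RNA sample pooled tissue of 3 seedlings, and each genotype is 1 cultivar, so that no value tells tolerant from sensitive rice in general. Values are log2 signals, with the median of a probe set's 24 arrays set to 0. They give differences between arrays, and no level of a gene can be compared with that of another gene.

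A comparison was called when limma gave a p of at most 0.05 after Benjamini-Hochberg adjustment over all 57258 probe sets and a difference of at least 2-fold. Differences between responses were called by the adjusted p alone. Values after ± are standard errors. They rest on 1 spread per probe set shared by the 8 groups, with n = 3 arrays per group. Replicate arrays correlated least in the −Pi shoots of PB1 (mean r 0.695), against 0.889 to 0.953 for the other 7 groups. Root and shoot marker genes followed the tissue named in the array titles. All 6 root markers were lower in shoots by limma except in Dular at −Pi, where 3 of 6 were. Of 16 probe sets of green tissue genes, 11 to 13 were higher in shoots. The Pi starvation markers SPX1, SPX2 and IPS1 rose at −Pi in both tissues of both genotypes. The root markers were NAS1, NAS2, LSI1, LSI2, IRT1 and YSL15. In Dular roots at −Pi, 11 of the 16 green tissue probe sets and 3 of the 6 root markers fell, and 1 green tissue probe set rose. The medians over each list were -2.04 and -3.91 (log2). In PB1 roots none of the 22 fell and 1 rose, the medians being -0.04 and 0.36. Of all 57258 probe sets, 1970 were called lower and 2359 higher at −Pi in Dular roots, and 1291 lower and 1462 higher in PB1 roots. Whether the marker shifts in Dular roots reflect the make-up of the tissue was not tested. Their part in the Dular root values below was not tested either.

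Among the 6 genes, the study designed qPCR primers for MGD2 and SQD2 Os01g04920, the pair with the largest rises in roots. They are shown because they mark the transcripts that were also chosen for measurement apart from the arrays, 5′ to 3′ in lower case.
MGD2 forward: agtcgggaatgtgccttacg
MGD2 reverse: ctcgggtccttggagaacac
SQD2 Os01g04920 forward: gcgcgcagaattgatcaaa
SQD2 Os01g04920 reverse: ctcaggtgctggtaggaacatct

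All 6 genes stood higher on each −Pi array than on each +Pi array of the same genotype and tissue. Limma called 6 of 6 higher at −Pi in Dular roots, Dular shoots and PB1 roots, and 5 of 6 in PB1 shoots. Over all probe sets, 4.12% were called higher in Dular roots, 1.16% in Dular shoots, 2.55% in PB1 roots and 0.603% in PB1 shoots. Non-overlap in the same direction held for 14.4% of all probe sets in Dular roots, 52.8% in Dular shoots, 40.7% in PB1 roots and 8.04% in PB1 shoots, so that it is a weak criterion here. For 5 of the 6 genes the 12 −Pi arrays also lay above all 12 +Pi arrays of both genotypes and tissues, which 0.194% of all probe sets did. The exception was SQD2 Os07g01030, whose shoots at +Pi overlapped with its roots at −Pi. For the 5 genes the gap between the lowest −Pi and the highest +Pi array ran from 0.011 (SQD1) to 5.43 (MGD2) on the log2 scale. Being called higher in all 4 comparisons held for 103 probe sets (0.18%), among them 5 of the 6 genes.

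**Figure D1:**
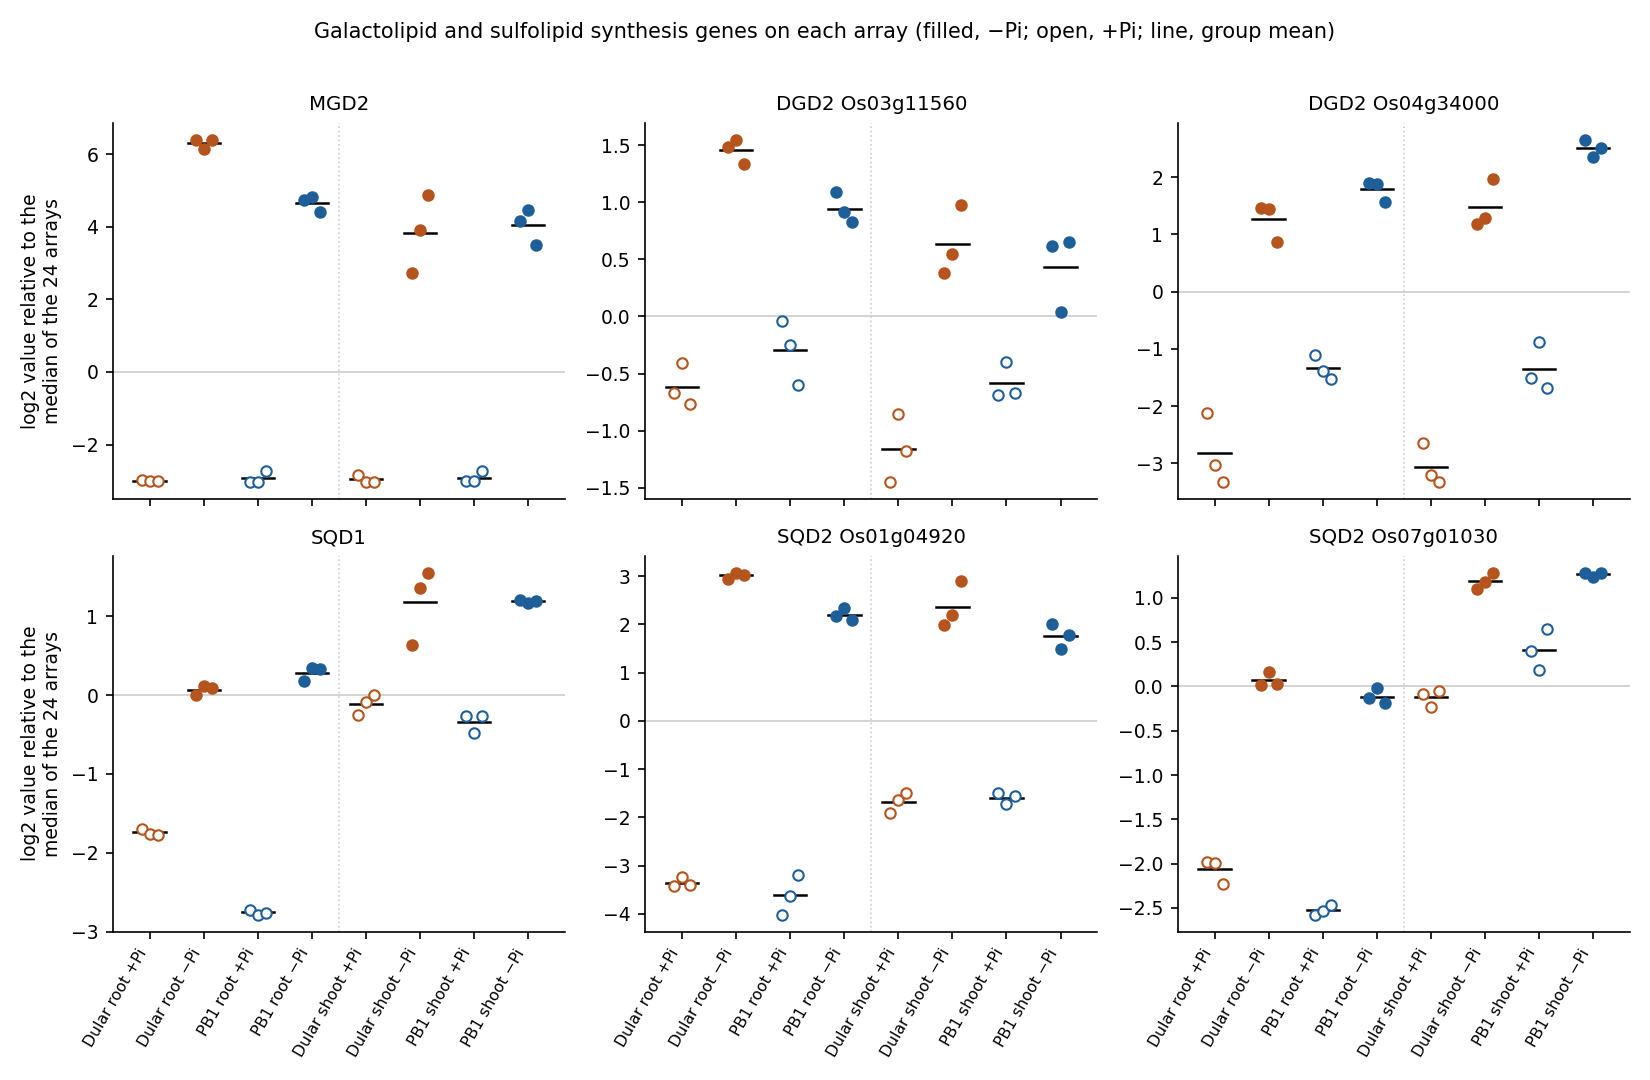
Centred log2 value (y axis) of each of the 6 genes on every array of the 8 groups (x axis). Filled points are −Pi arrays, open points +Pi arrays, orange is Dular and blue PB1, and the black line is the mean of 3 arrays. MGD2 at +Pi lay within 0.31 on all 12 arrays, while the 3 sulfolipid genes stood higher in shoots than in roots at +Pi.

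MGD2, an MGDG synthase gene, had the largest response of the 6. In Dular roots its values were -2.99, -3.00 and -2.99 at +Pi and 6.38, 6.14 and 6.39 at −Pi. PB1 roots gave -3.03, -3.02 and -2.72 at +Pi and 4.74, 4.83 and 4.39 at −Pi. The 3 Dular root arrays at −Pi were thus above all others of the series for this gene. In Dular shoots the values were -2.84, -3.02 and -3.02 at +Pi and 2.72, 3.90 and 4.88 at −Pi. PB1 shoots gave -2.99, -3.01 and -2.72 at +Pi and 4.16, 4.46 and 3.49 at −Pi. Shoots of both genotypes overlapped at −Pi, and Dular shoot replicate 1 was the lowest −Pi array.

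The rise of MGD2 was 628-fold in Dular roots (log2 9.29 ± 0.35, adjusted p = 6.05e-12 from limma) and 191-fold in PB1 roots (7.58 ± 0.35, adjusted p = 1.74e-10). It was 111-fold in Dular shoots (6.79 ± 0.35, adjusted p = 2.15e-09 from limma) and 123-fold in PB1 shoots (6.95 ± 0.35, adjusted p = 3.15e-09). By size of the rise, MGD2 was number 3 of 57258 probe sets in Dular roots and in PB1 shoots, 8 in Dular shoots and 10 in PB1 roots. At +Pi the 12 arrays spanned 0.31 on the log2 scale and at −Pi 3.67. A span at +Pi smaller than that of MGD2 was found in 42.2% of all probe sets, whose median was 0.59. No detection call was at hand, so that whether MGD2 was above background at +Pi, and with it the size of its fold change, was not tested.

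The pair of DGD2 genes, which encode DGDG synthases, differed in the size of their response. DGD2 Os04g34000 stood at -2.12, -3.03 and -3.32 in Dular roots at +Pi and at 1.46, 1.44 and 0.87 at −Pi. Its PB1 root values were -1.10, -1.38 and -1.53 at +Pi and 1.89, 1.88 and 1.57 at −Pi. Dular roots were below PB1 roots at both Pi levels without overlap, as 15.2% of all probe sets were at +Pi and 14.5% at −Pi. In Dular shoots DGD2 Os04g34000 had -2.64, -3.20 and -3.32 at +Pi and 1.17, 1.29 and 1.97 at −Pi. In PB1 shoots it had -1.52, -0.87 and -1.69 at +Pi and 2.65, 2.35 and 2.51 at −Pi, again above Dular at both levels, as 15.2% of all probe sets were at +Pi and 11.7% at −Pi.

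DGD2 Os04g34000 rose 17.0-fold in Dular roots (log2 4.08 ± 0.30, adjusted p = 1.55e-08 from limma) and 23.2-fold in Dular shoots (4.53 ± 0.30, adjusted p = 4.11e-08). PB1 gave 8.70-fold in roots (3.12 ± 0.30, adjusted p = 1.34e-06 from limma) and 14.5-fold in shoots (3.86 ± 0.30, adjusted p = 4.85e-07). It was the only one of the 6 genes whose rise was at least as large in shoots as in roots in both genotypes, by values of 0.45 and 0.74 on the log2 scale. Neither difference between tissues was called (adjusted p = 0.453 in Dular and 0.501 in PB1 from limma), but after quantile normalization that in Dular was 1.52 and was called (adjusted p = 0.0200).

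DGD2 Os03g11560 responded less. At +Pi its arrays ranged from -1.45 in a Dular shoot to -0.04 in a PB1 root, and at −Pi from 0.04 in a PB1 shoot to 1.54 in a Dular root. The lowest −Pi array and the highest +Pi array were only 0.07 apart. The rise was 4.20-fold in Dular roots (log2 2.07 ± 0.19), 3.46-fold in Dular shoots (1.79 ± 0.19), 2.36-fold in PB1 roots (1.24 ± 0.19) and 2.03-fold in PB1 shoots (1.02 ± 0.19). All 4 passed limma's test (adjusted p = 3.45e-07, 1.63e-05, 2.25e-04 and 0.00451). The PB1 shoot value lay just above 2-fold, and its call was lost without PB1 shoot +Pi replicate 1 or 3 or without PB1 shoot −Pi replicate 1 or 3 (log2 0.91 to 0.98). It was also lost by its p at a change above 2-fold, with array weights (1.07, adjusted p = 0.0597 from limma), with the shoot arrays alone (1.02, adjusted p = 0.0618) and with the PB1 shoot arrays alone (1.02, adjusted p = 0.151).

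**Figure D2:**
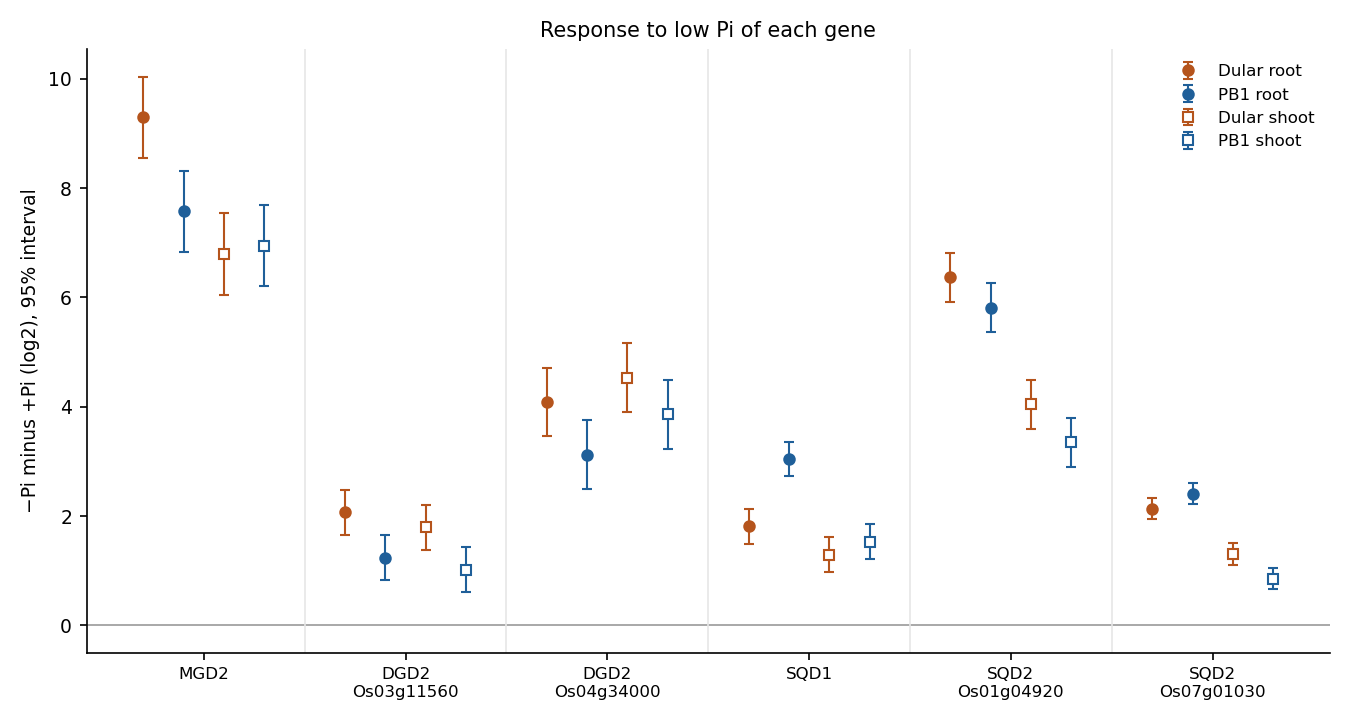
Change from +Pi to −Pi on the log2 scale (y axis) of each gene (x axis) with the 95% confidence interval from limma, for roots (filled circles) and shoots (open squares) of Dular (orange) and PB1 (blue). MGD2 lies highest with 6.79 to 9.29, SQD2 Os01g04920 follows in roots with 5.81 and 6.37 and DGD2 Os04g34000 in shoots with 3.86 and 4.53, and DGD2 Os03g11560 and SQD2 Os07g01030 stay under 2.5.

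The sulfolipid genes began from different values in roots and shoots. SQD1, the gene of UDP-sulfoquinovose synthase, stood at -1.70, -1.76 and -1.77 in Dular roots at +Pi and at 0.01, 0.11 and 0.09 at −Pi. PB1 roots were lower at +Pi with -2.72, -2.78 and -2.77, and reached 0.18, 0.34 and 0.33 at −Pi. PB1 arrays lay below the Dular arrays at +Pi (as in 64.1% of all probe sets) and above them at −Pi (as in 14.5%) without overlap. The −Pi difference of -0.22 ± 0.15 was under 2-fold and was not called (adjusted p = 0.399 from limma). Its shared spread includes Dular shoots at −Pi, with a standard deviation of 0.49. The −Pi roots had 0.056 in Dular and 0.087 in PB1. Under the other settings tried, the difference ran from -0.26 to -0.18 and the adjusted p from 0.00560 to 0.468 in limma fits. Dular shoots gave -0.25, -0.09 and -0.01 at +Pi and 0.63, 1.35 and 1.55 at −Pi. PB1 shoots gave -0.26, -0.48 and -0.27 at +Pi and 1.21, 1.17 and 1.19 at −Pi. All shoot arrays at +Pi were above all root arrays at +Pi, an order whose share over all probe sets was not computed.

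SQD1 rose 3.51-fold in Dular roots (log2 1.81 ± 0.15, adjusted p = 7.56e-08 from limma) and 8.23-fold in PB1 roots (3.04 ± 0.15, adjusted p = 3.76e-10). It rose 2.45-fold in Dular shoots (1.29 ± 0.15, adjusted p = 3.35e-05 from limma) and 2.89-fold in PB1 shoots (1.53 ± 0.15, adjusted p = 9.86e-06). With a fit to the Dular shoot arrays alone the adjusted p was 0.106 at the same change.

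SQD2 Os01g04920, a gene of the sulfoquinovosyl transferase, had the next largest response after MGD2 in roots, while in shoots DGD2 Os04g34000 rose more. In roots at +Pi its values were -3.42, -3.24 and -3.41 in Dular and -4.02, -3.64 and -3.20 in PB1. At −Pi they were 2.94, 3.07 and 3.03 in Dular roots and 2.16, 2.33 and 2.09 in PB1 roots. The genotypes overlapped in roots at +Pi and were apart at −Pi, with Dular higher, as in 22.5% of all probe sets. In shoots at +Pi the values were -1.91, -1.65 and -1.50 in Dular and -1.49, -1.73 and -1.56 in PB1. All were above the root values, and the share of this order over all probe sets was not computed. In shoots at −Pi they were 1.98, 2.19 and 2.90 in Dular and 2.01, 1.49 and 1.77 in PB1.

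The rise of SQD2 Os01g04920 was 82.7-fold in Dular roots (log2 6.37 ± 0.21, adjusted p = 1.05e-12 from limma) and 56.2-fold in PB1 roots (5.81 ± 0.21, adjusted p = 8.40e-12). In shoots it was 16.5-fold in Dular (4.04 ± 0.21, adjusted p = 2.15e-09 from limma) and 10.2-fold in PB1 (3.35 ± 0.21, adjusted p = 4.09e-08).

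SQD2 Os07g01030, the other gene annotated with this enzyme step, changed less and started higher in shoots. Its root arrays lay between -2.57 and -1.98 at +Pi and between -0.19 and 0.16 at −Pi. The shoot arrays lay between -0.23 and 0.64 at +Pi and between 1.09 and 1.29 at −Pi. It rose 4.40-fold in Dular roots (log2 2.14 ± 0.09, adjusted p = 3.10e-11 from limma), 5.31-fold in PB1 roots (2.41 ± 0.09, adjusted p = 1.72e-11) and 2.48-fold in Dular shoots (1.31 ± 0.09, adjusted p = 1.16e-07). In PB1 shoots the change of 1.81-fold (0.85 ± 0.09, adjusted p = 3.07e-05 from limma) passed the p threshold but not the fold threshold. The further probe set of this gene was flat, with values from -0.05 to 0.21 over all 24 arrays and Pi changes from -0.05 to 0.10 on the log2 scale. None of these was called, so that the values of SQD2 Os07g01030 rest on 1 of its 2 probe sets.

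Tissues were compared next. At +Pi, SQD1 and both SQD2 genes were higher in shoots than in roots in both genotypes, and none of the 3 galactolipid genes was called. In Dular the differences were 3.09-fold for SQD1 (log2 1.63 ± 0.15, adjusted p = 8.04e-08 from limma), 3.18-fold for SQD2 Os01g04920 (1.67 ± 0.21, adjusted p = 4.03e-06) and 3.85-fold for SQD2 Os07g01030 (1.94 ± 0.09, adjusted p = 1.44e-11). In PB1 they were 5.35-fold (2.42 ± 0.15, adjusted p = 4.64e-10 from limma), 4.07-fold (2.02 ± 0.21, adjusted p = 3.92e-07) and 7.66-fold (2.94 ± 0.09, adjusted p = 8.74e-14). After quantile normalization of the Dular values at +Pi, SQD2 Os01g04920 was under 2-fold (0.88) and DGD2 Os04g34000 was called lower in shoots (-1.03, adjusted p = 0.00600 from limma), so that 1 of the 3 genes called was then another. For comparison, 16.2% of all probe sets were called in either direction in Dular and 16.1% in PB1. MGD2 differed between tissues at +Pi by 0.03 (95% confidence interval -0.71 to 0.78) in Dular and 0.01 (-0.73 to 0.76) in PB1. DGD2 Os04g34000 differed by -0.23 (-0.86 to 0.40) and -0.02 (-0.65 to 0.61), and DGD2 Os03g11560 by -0.54 (-0.95 to -0.13) and -0.29 (-0.70 to 0.12). The MGD2 intervals rest on a spread shared with the −Pi groups. Its standard deviation was 1.09 in Dular shoots at −Pi and 0.0052 to 0.18 in the +Pi groups.

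At −Pi the picture between tissues was another. SQD1 (log2 1.11 ± 0.15, adjusted p = 8.71e-06 from limma) and SQD2 Os07g01030 (1.12 ± 0.09, adjusted p = 1.99e-08) stayed higher in Dular shoots, while MGD2 was 5.54-fold lower in Dular shoots than in Dular roots (-2.47 ± 0.35, adjusted p = 1.75e-05). In PB1, SQD2 Os07g01030 alone was called (1.38 ± 0.09, adjusted p = 1.37e-09 from limma), and SQD1 was under 2-fold with 0.91 ± 0.15. SQD2 Os01g04920 was now lower in shoots, by values of -0.65 ± 0.21 (adjusted p = 0.0236 from limma) in Dular and -0.44 ± 0.21 (adjusted p = 0.147) in PB1, neither of them called. Either direction was called in 16.8% of all probe sets in Dular and 17.3% in PB1. After quantile normalization DGD2 Os04g34000 was called higher in PB1 shoots at −Pi (1.17, adjusted p = 0.00231 from limma). The call of SQD1 in Dular was lost without Dular shoot −Pi replicate 3 (0.92).

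**Figure D3:**
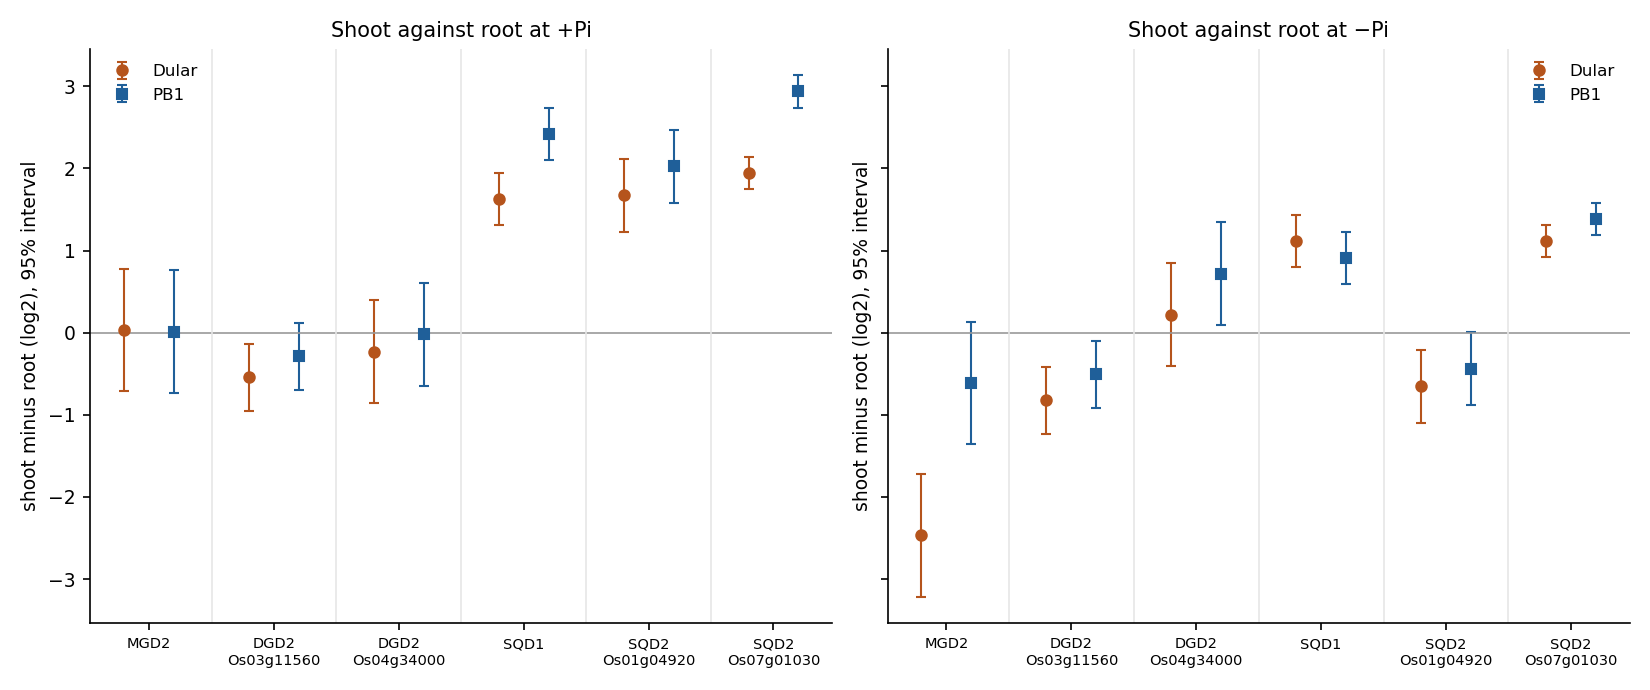
Shoot minus root on the log2 scale (y axis) for each gene (x axis) at +Pi (left) and −Pi (right) in Dular (orange circles) and PB1 (blue squares), with the 95% confidence interval from limma. At +Pi the 3 sulfolipid genes lie between 1.63 and 2.94 and the galactolipid genes between -0.54 and 0.03. At −Pi SQD2 Os01g04920 lies below 0 and MGD2 in Dular at -2.47.

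The response itself was smaller in shoots than in roots for both SQD2 genes. For SQD2 Os01g04920 the difference of the log2 changes was -2.32 ± 0.30 (adjusted p = 4.78e-05 from limma) in Dular and -2.46 ± 0.30 (adjusted p = 8.94e-05) in PB1. SQD2 Os07g01030 gave -0.83 ± 0.13 (adjusted p = 4.44e-04 from limma) in Dular and -1.56 ± 0.13 (adjusted p = 1.53e-06) in PB1. MGD2 responded less in shoots in Dular (-2.50 ± 0.50, adjusted p = 0.00338 from limma), and in PB1 the difference was -0.63 ± 0.50 (adjusted p = 0.751). SQD1 responded less in shoots in PB1 (-1.51 ± 0.21, adjusted p = 3.57e-04 from limma), and in Dular the difference was -0.52 ± 0.21 (adjusted p = 0.117). In each genotype 3 of 6 genes were called, beside 8.59% of all probe sets in Dular and 5.23% in PB1. After quantile normalization the calls of MGD2 (adjusted p = 0.0778), SQD2 Os01g04920 (-1.02, adjusted p = 0.0672) and SQD2 Os07g01030 (-0.28, adjusted p = 0.320) in Dular were lost, and DGD2 Os04g34000 was the 1 gene called. SQD1 was called in Dular with array weights (-0.34, adjusted p = 0.0212 from limma) and without Dular shoot −Pi replicate 3 (-0.70, adjusted p = 0.0250). Whether the tissue difference itself differed between genotypes was called for SQD2 Os07g01030 (0.73 ± 0.19, adjusted p = 0.0370 from limma), as in 3.67% of all probe sets. For MGD2 this value was -1.87 ± 0.71 (adjusted p = 0.173) and for SQD1 1.00 ± 0.30 (adjusted p = 0.0821).

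Between the genotypes, DGD2 Os04g34000 was lower in Dular at +Pi in both tissues. It was 2.80-fold lower in roots (log2 -1.49 ± 0.30, adjusted p = 7.12e-04 from limma) and 3.24-fold lower in shoots (-1.70 ± 0.30, adjusted p = 2.95e-04). At −Pi it was 2.03-fold lower in Dular shoots (-1.02 ± 0.30, adjusted p = 0.0155 from limma), and in roots the difference of -0.52 ± 0.30 was not called (adjusted p = 0.255). After quantile normalization the root difference at +Pi was under 2-fold (-0.88), and SQD2 Os01g04920 (1.16, adjusted p = 6.12e-04 from limma) and SQD2 Os07g01030 (1.03, adjusted p = 7.75e-07) were called higher in Dular roots at +Pi instead. The shoot call at −Pi was lost after quantile normalization (-0.92), with array weights (adjusted p = 0.442 from limma), with the compared groups alone (adjusted p = 0.0565), and without Dular shoot −Pi replicate 1 or 2 or PB1 shoot −Pi replicate 1 (-0.95 to -0.87, adjusted p = 0.0553 to 0.0777).

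MGD2 was higher in Dular roots than in PB1 roots at −Pi, 3.13-fold (log2 1.65 ± 0.35, adjusted p = 0.00128 from limma). Its difference was -0.07 in roots at +Pi (95% confidence interval -0.82 to 0.67) and -0.21 in shoots at −Pi (-0.95 to 0.54), and neither was called. The +Pi interval rests on the spread shared with the more variable −Pi groups. SQD1 was 2.02-fold higher in Dular roots at +Pi (1.01 ± 0.15, adjusted p = 4.07e-05 from limma) and fell under 2-fold after median centring of the arrays (0.97) and without Dular root +Pi replicate 1 (0.99). SQD2 Os01g04920 was higher in Dular at −Pi by 1.76-fold in roots (0.82 ± 0.21, adjusted p = 0.00557 from limma) and 1.52-fold in shoots (0.60 ± 0.21, adjusted p = 0.0458), under the fold threshold. After quantile normalization the −Pi root value was called (1.09, adjusted p = 0.00115 from limma). Also under the fold threshold, SQD2 Os07g01030 at +Pi was lower in Dular shoots (-0.53 ± 0.09, adjusted p = 2.78e-04 from limma) and higher in Dular roots (0.46 ± 0.09, adjusted p = 7.94e-04). DGD2 Os03g11560 was lower in Dular shoots at +Pi (-0.57 ± 0.19, adjusted p = 0.0406 from limma). Called were 2 of 6 genes in roots at +Pi and 1 of 6 in each of the other 3 comparisons. Among all probe sets 13.2% were called in either direction in roots at +Pi, 14.3% in roots at −Pi, 10.3% in shoots at +Pi and 11.4% in shoots at −Pi. The share of the 6 genes is thus near the background in 3 of these comparisons. The spiked control BioB was also higher on Dular than on PB1 root arrays (median log2 4.98 at +Pi and 4.77 at −Pi over 3 probe sets), and in shoots it differed by -0.13 and 0.12. In roots, the processing of the arrays and the genotype cannot be told apart.

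**Figure D4:**
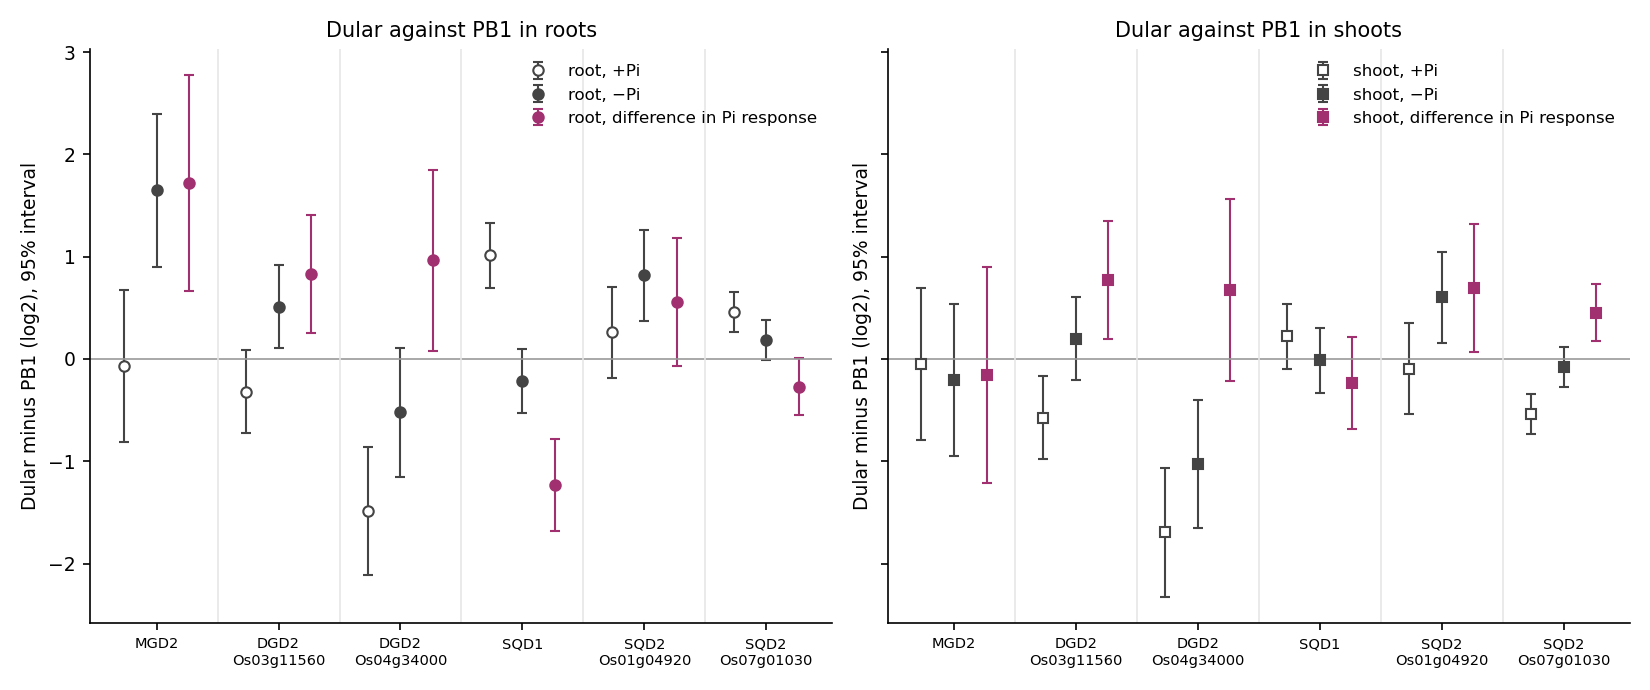
Dular minus PB1 on the log2 scale (y axis) for each gene (x axis) in roots (left, circles) and shoots (right, squares) with the 95% confidence interval from limma. Open symbols are +Pi, filled dark symbols −Pi, and purple symbols the difference between the responses of the genotypes. MGD2 in roots lies at -0.07 at +Pi and 1.65 at −Pi, and SQD1 at 1.01 and -0.22.

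In roots the response of MGD2 was larger in Dular (difference 1.72 ± 0.50 on the log2 scale, adjusted p = 0.0333 from limma) and that of SQD1 was smaller (-1.23 ± 0.21, adjusted p = 8.09e-04). These 2 of 6 genes compare with 11.7% of all probe sets called in either direction. Fitted to the root arrays alone, the difference of MGD2 had a standard error of 0.18 (adjusted p = 5.93e-04 from limma). With all groups its call was lost in 8 of 12 fits that left out 1 root array (1.59 to 1.76, adjusted p = 0.0504 to 0.0788 from limma). Left out in these fits were any 1 of the Dular +Pi arrays, Dular −Pi replicates 1 and 3, PB1 +Pi replicate 3, and PB1 −Pi replicates 1 and 3. The other 4 genes had differences of 0.83 ± 0.27 for DGD2 Os03g11560, 0.96 ± 0.42 for DGD2 Os04g34000, 0.56 ± 0.30 for SQD2 Os01g04920 and -0.27 ± 0.13 for SQD2 Os07g01030 in roots, none of them called in the fit to all arrays. DGD2 Os03g11560 was called in the fit to the root arrays alone (adjusted p = 0.0348 from limma) and without PB1 root +Pi replicate 3 (0.98, adjusted p = 0.0339). DGD2 Os04g34000 was called without Dular root +Pi replicate 1 (1.32, adjusted p = 0.0348 from limma), and both DGD2 genes were called with array weights. SQD2 Os07g01030 was called after quantile normalization (-0.90, adjusted p = 7.79e-04 from limma). In shoots 0 of 6 differences passed limma's adjusted threshold, while 3 of 6 had an unadjusted p under 0.05 (DGD2 Os03g11560 and both SQD2 genes) and 3.27% of all probe sets were called. SQD2 Os07g01030 was called there after quantile normalization (0.67, adjusted p = 0.0162 from limma) and without PB1 shoot +Pi replicate 2 (0.57, adjusted p = 0.0159). These shoot differences ranged from -0.23 for SQD1 to 0.77 for DGD2 Os03g11560.

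Replicates of 1 group were not equally spread over the 6 genes. In Dular shoots at −Pi, replicate 1 was lowest and replicate 3 highest in 6 of 6 genes, an order that 6.56% of all probe sets had. MGD2 spanned 2.17 on the log2 scale there. The Pi starvation markers on the same arrays, for replicates 1 to 3, were 1.94, 2.01 and 2.37 for SPX1, 2.85, 2.55 and 3.38 for SPX2 and 2.75, 3.41 and 3.53 for IPS1. Each of these was highest in replicate 3, while SPX1 and IPS1 were lowest in replicate 1 and SPX2 in replicate 2. Without replicate 1 the rise of MGD2 in Dular shoots was 7.35 on the log2 scale, and without replicate 3 it was 6.27. PB1 shoot −Pi replicate 2, the array with the largest deviation over all probe sets (0.54, root mean square), was lowest in 5 of 6 genes. Of all probe sets, 11.3% had replicate 2 lowest and replicate 1 highest there and 8.99% had replicate 2 lowest and replicate 3 highest.

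Other genes of the pathway were found by name in the annotation. MGD1 and MGD3, which also encode MGDG synthases, and 4 genes of UDP-glucose 4-epimerase, the enzyme that supplies UDP-galactose, had a probe set. MGD3 stood at -0.74, -0.63 and -0.47 in Dular roots and 0.41, 0.24 and 0.12 in PB1 roots at +Pi, and at 0.69, 0.40 and 0.42 and 1.33, 1.32 and 1.48 at −Pi. MGD3 rose in all 4 comparisons, by log2 1.12 in roots and 1.62 in shoots of Dular (adjusted p = 2.38e-04 and 3.23e-05 from limma) and by 1.12 and 1.04 in those of PB1 (adjusted p = 4.13e-04 and 0.00297). It was lower in Dular than in PB1 shoots, by -1.71 (adjusted p = 1.95e-06 from limma) at +Pi and -1.13 (1.44e-04) at −Pi. MGD1 stayed within -0.56 to 0.44 on all 24 arrays and had no called Pi response, the PB1 root change being under 2-fold, with changes of -0.11, -0.18, 0.38 and -0.20 in Dular roots, Dular shoots, PB1 roots and PB1 shoots. Its root changes differed between the genotypes by limma's test, as did those of 2 of these 6 genes in all and 11.7% of all probe sets. Its PB1 changes differed between the tissues, as did those of 2 of the 6 genes in all and 5.23% of all probe sets.

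**Figure D5:**
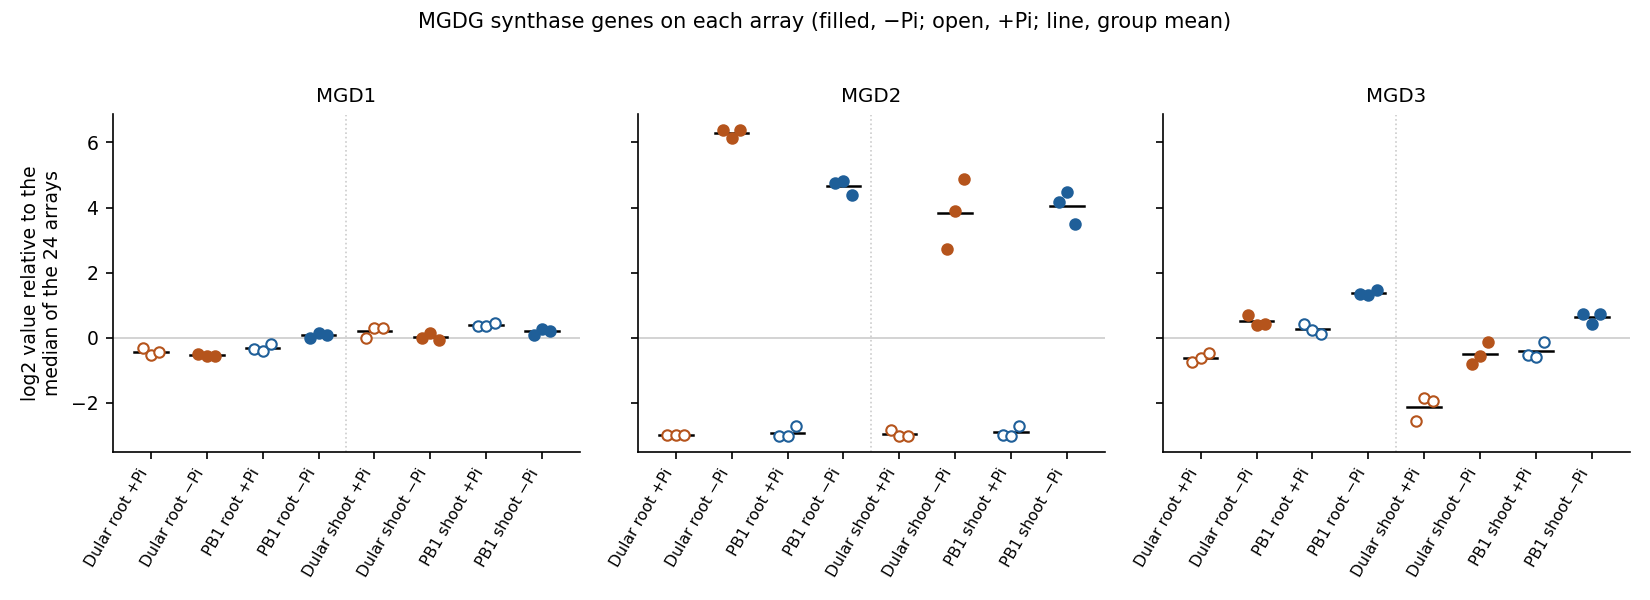
Centred log2 value (y axis) of MGD1, MGD2 and MGD3 on every array of the 8 groups (x axis), with filled points for −Pi, open points for +Pi and a line at the mean of 3 arrays. Only differences within a gene can be read, since each is centred on its own median. MGD1 stays between -0.56 and 0.44, MGD3 rises by 1.04 to 1.62 and MGD2 by 6.79 to 9.29.

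Among the 4 epimerase genes, UGE-2 rose in Dular roots (log2 1.19, adjusted p = 2.24e-05 from limma) and PB1 roots (1.10, adjusted p = 1.08e-04) and was not called in shoots. It was lower in Dular than in PB1 shoots, by -1.30 at +Pi and -1.01 at −Pi. No Pi response of the other 3 epimerase genes was called. At −Pi, UGE-1 was called lower in Dular than in PB1 roots (-1.27) and UGE-4 lower in Dular than in PB1 shoots. With MGD3, 1 of the 6 pathway genes was called lower in Dular roots at −Pi, 2 in shoots at +Pi and 3 in shoots at −Pi. None was called in roots at +Pi. The shares of all probe sets called in either direction are given above (10.3% to 14.3%). Of the 6 pathway genes in all, 2 were called higher and none lower at −Pi in each root comparison. In each shoot comparison 1 was called higher and none lower. For roots, a rise at −Pi was called for 4.12% (Dular) and 2.55% (PB1) of all probe sets. For shoots these shares were 1.16% (Dular) and 0.603% (PB1). UGE-1 went down in Dular roots (-0.63) and shoots (-0.82) and up in both tissues of PB1 (0.34 in roots), and none of these changes was called. The difference between its responses in Dular and PB1 was -0.97 in roots (adjusted p = 0.0371 from limma) and -1.14 in shoots (adjusted p = 0.0389). DGD1 Os02g33580, a DGD gene Os11g05990 and an SQD2 gene Os03g15840 were not analysed here.

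The patterns of the 8 group means were compared with those of the other annotated probe sets by the mean absolute difference, each gene centred on its own mean. Nearest to MGD2 were SPX3 (0.64 log2) and SPX5 (1.00), SPX domain genes of Pi signalling, and Os06g44220 (1.08). SQD1 and SQD2 Os07g01030 were each other's nearest gene among all annotated probe sets, at 0.23. The SQD2 pair differed from each other by 1.61 and the DGD2 pair by 1.18. Nearest to DGD2 Os03g11560 was a heat shock protein gene, CLPB1 (0.14), and nearest to DGD2 Os04g34000 was the transporter gene Os08g06010 (0.35), while the MYB gene NIGT1 lay at 0.61. SQD2 Os01g04920 had no annotated gene closer than 0.43. These values describe 8 group means and carry no test.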

How the data were processed

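Total RNA of roots and shoots was hybridised to 24 Affymetrix rice arrays. The authors deposited log2 signals, for which they ran GC-RMA in the GeneSpring software and subtracted the median of every probe set. All 57381 row medians were 0 within 1e-06, so that signal over background and absolute levels are not known, and the centring fixes the zero point only. Groups came from the array titles, which name root or shoot, while the source labels of the samples read whole seedling. After 123 control probe sets were left out, 57258 were fitted with limma 3.58.1 (R 4.3.3; lmFit, eBayes, means of 8 groups, all 24 arrays, prior degrees of freedom 0.789), with 16 comparisons as contrasts. The number of arrays limits the precision.

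The 6 genes were matched by identifier through 1806 supplementary entries at hand, all rising in Dular roots. The genes named are these 6, further probe sets of the same gene, other MGD, DGD, SQD and TGD genes of the annotation, UDP-glucose 4-epimerase genes where called, and for each of the 6 genes the 3 annotated genes nearest by group means. Members and lists were chosen with earlier results of these data known. Figures were drawn with matplotlib. The fit was tested on simulated data. Other normalizations, variance models, sample subsets, blocks and left-out arrays were tried.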

Additional observations from a re-analysis of the deposited data

Results flagged for a closer look

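Responses to low Pi that differed by limma's test between genotypes or tissues were looked at again. Between roots of Dular and PB1, they were MGD2 with a difference of 1.72 on the log2 scale and SQD1 with -1.23. Between shoots and roots of Dular, they were MGD2 with -2.50, SQD2 Os01g04920 with -2.32 and SQD2 Os07g01030 with -0.83. Between shoots and roots of PB1, they were SQD1 with -1.51, SQD2 Os01g04920 with -2.46 and SQD2 Os07g01030 with -1.56. For SQD2 Os07g01030 the difference between tissues also differed between the genotypes, by 0.73. Its further probe set gave 0.10 in Dular, -0.13 in PB1 and 0.23 for the difference between genotypes, none of them called.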

How the results depend on the processing

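The Pi response counts of the 6 genes stayed within 1.5 times in all 4 comparisons under every setting tried. Other counts moved. Median centring gave 1 instead of 2 called between genotypes in roots at +Pi (1 to 2 with 1 array left out). Quantile normalization gave 2 instead of 1 in roots at −Pi, 0 instead of 1 in shoots at −Pi, 2 instead of 1 between tissues in PB1 at −Pi, 1 instead of 0 for the genotype difference of the response in shoots, and 1 instead of 3 for the tissue difference in Dular. Array weights and the compared groups alone gave 0 in shoots at −Pi (0 to 1 with 1 array left out), and array weights gave 4 instead of 2 for the genotype difference in roots (1 to 2 with 1 array left out). The genotype difference in shoots ran from 0 to 1 with 1 array left out, 1 being found without PB1 shoot +Pi replicate 2. The further probe set gave 0 instead of 1 between tissues in PB1 at −Pi. The array weights had not converged and ran from 4.65e-05 to 56.6.

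Signs (log2) turned as follows. With its further probe set, SQD2 Os07g01030 gave -0.0024 for the Pi response in Dular roots, -0.055 in PB1 shoots, -0.040 and 0.077 between genotypes at −Pi in roots and shoots, -0.027 between tissues in Dular at +Pi, -0.041 in PB1 at −Pi and 0.10 for the tissue difference in Dular. After quantile normalization, MGD2 gave 0.76, 0.058 and 0.30 between genotypes in roots at +Pi, shoots at +Pi and shoots at −Pi, -0.77 and -0.076 between tissues at +Pi in Dular and PB1, 0.24 for the genotype difference in shoots and 0.033 for the tissue difference in PB1. SQD2 Os01g04920 gave 0.068 between genotypes in shoots at +Pi, 0.0094 between tissues in PB1 at −Pi and -0.073 for the genotype difference in roots. Between genotypes in shoots at −Pi, SQD1 gave 0.17 and SQD2 Os07g01030 0.089, and DGD2 Os03g11560 gave 0.024 for the tissue difference in Dular. With array weights, MGD2 gave 0.19 between genotypes in shoots at −Pi, -0.0054 and -0.0061 between tissues at +Pi in Dular and PB1 and 0.20 for the genotype difference in shoots, and SQD1 gave 0.24 and 0.027 for the same comparisons in shoots.

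With 1 array left out, MGD2 ran from -0.12 to 0.032, -0.11 to 0.041 and -0.73 to 0.35 between genotypes in roots at +Pi, shoots at +Pi and shoots at −Pi, from -0.028 to 0.064 and -0.079 to 0.12 between tissues at +Pi in Dular and PB1, and from -0.68 to 0.40 for the genotype difference in shoots. DGD2 Os04g34000 ran from -0.48 to 0.12 between tissues in Dular at +Pi, -0.030 to 0.37 at −Pi and -0.26 to 0.14 in PB1 at +Pi. SQD1 ran from -0.20 to 0.26 between genotypes in shoots at −Pi and -0.42 to 0.040 for the genotype difference in shoots, and SQD2 Os01g04920 from -0.19 to 0.015 between genotypes in shoots at +Pi. The cause of these shifts was not tested.

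Replicate numbers did not pair the arrays (mean correlation of deviations 0.0203 for the same number and -0.00998 for different ones). With the replicate number as a block, all 16 counts and 96 changes kept their call and direction, and the 6 counts and 36 changes tried with a random block did so too. A variance trend and an unmoderated test changed no call. The search for a promoter motif was not run. Signal over background is not known, which limits what can be said of low values.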
